A study of Mus musculus with 9 samples.

Results

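Integrins and laminins were followed across 3 kinds of cultured mouse neural cells that differ in the tumour suppressor gene Nf1. Members were all genes whose symbol names an integrin chain (Itga or Itgb with its suffix) or a laminin chain (Lama, Lamb or Lamc with its number) and that had a probe set carrying this 1 symbol in the platform annotation. The rule took 36 genes of the 18193 measured, 26 of them named as integrin chains (16 alpha and 10 beta) and 10 as laminin chains. They had 77 probe sets, and where a gene had several the brightest by mean stood for it. Itga11 and Itgad are not analysed here. Itgbl1, which encodes a secreted protein with repeats like those of beta chains, is named by the rule although it is not a receptor chain.

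The tumour-derived cells were glioma stem cells (GSC), cultured from the optic gliomas that Nf1+/-GFAP CKO mice had at 3 months of age. That genotype holds a conditional knockout named for the astroglial Gfap promoter. Nf1-null NSC were neural stem cells of the third ventricle zone from Nf1flox/flox pups at postnatal day 1, given a Cre virus. Wild-type (WT) NSC were the same kind of Nf1flox/flox cultures with a LacZ control virus, so that both NSC groups carried the floxed alleles and a virus. All mice were C57BL/6, and all cells grew in low-attachment dishes with FGF and EGF, a format in which cells have no coated surface to adhere to. Each group had 3 arrays. Independent cultures are stated for the NSC alone, and separate tumours are not stated for the GSC, so p-values measure only the spread between these samples. Age, brain region, virus and tumour origin all differ between the GSC and the NSC and cannot be told apart.

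Integrins are receptors made of 1 alpha and 1 beta chain that hold cells to the extracellular matrix or to other cells and pass signals inwards through talins, kindlins and the kinase complex built on ILK. Laminins are cross-shaped trimers of 1 alpha, 1 beta and 1 gamma chain and form the sheet of basement membranes. The integrins α3β1, α6β1, α7β1 and α6β4 bind laminins, α1β1 and α2β1 bind collagens and also laminins, and most αv integrins and α8β1 bind the RGD motif of other ligands. Neural stem cells are known to sit against laminin-rich matrix at vessels and at the ventricle, and α6β1 is a receptor often named for that contact.

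The data are probe set signals on a linear scale with the same trimmed mean on every array. Unless said otherwise, tests were run on log2(signal + 1) over all 18193 genes in limma, with a Benjamini-Hochberg adjusted p under 0.05 as the threshold. Signals of different probe sets are not compared with each other. Of the members, 14 lay in the brighter 9097 genes (8 integrin and 6 laminin chains), and the signals of the other 22 ran from 7 to 927.4. GSC array 1 differed from the other GSC arrays, 2 and 3, with correlations of 0.950 and 0.944 with them against 0.989 between the other pair, and it correlated at 0.944 with Nf1-null NSC array 1. Values without this array are therefore given where a call turns on it. Nf1 itself gave 622.6, 600.1 and 548.9 in GSC, 430.3, 645.8 and 577 in the Nf1-null NSC, and 1139.5, 919.5 and 999.9 in WT NSC. Where this probe set lies relative to the floxed part of the gene is not given here. Both other groups lay below WT NSC without overlap, at a log2 difference of -0.78 (SE 0.19, limma adjusted p = 0.0441) for GSC and -0.90 (SE 0.19, adjusted p = 0.123) for Nf1-null NSC. The exact permutation p was 0.1 in each case, which is the smallest that 3 against 3 arrays allow. With the mean of all Nf1 probe sets the difference of GSC from WT NSC was -0.66 (limma adjusted p = 0.417). The limma call was also lost with quantile (adjusted p = 0.0598) or median scaling (0.0567) and with the replicate number as a block (0.0783). Over the brighter genes alone it was kept (adjusted p = 0.0111).

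Against WT NSC, GSC had higher signals of the integrin alpha chains Itga8, Itga4, Itga1, Itga9 and Itgav and a lower signal of the beta chain Itgb5. Sizes ran from a 51.8-fold rise of Itga8 to a 1.68-fold rise of Itgav. No laminin chain passed the threshold, and neither did the laminin receptor chains Itga2, Itga3, Itga6, Itga7, Itgb1 and Itgb4. These 5 rises and 1 fall are 16.7% of the 36 members, beside 9.06% of all genes called in this comparison (3.46% higher and 5.60% lower). The remaining 30 members had log2 differences between -1.80 and 1.65, with 12 above and 18 below 0. The median over the members was -0.03, beside -0.09 over all genes tested. RNA was taken from whole cultures, so a gene expressed in more cells and a gene expressed more strongly per cell cannot be told apart.

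Itga8 encodes α8, which pairs with β1 and binds RGD ligands, above all nephronectin. Its signals were 3199.2, 18747.2 and 17781 in GSC, 570.9, 1122.1 and 963.4 in the Nf1-null NSC, and 159.2, 219.8 and 216.6 in WT NSC. The 3 groups stood in that order with no overlap, and GSC array 1 lay well below arrays 2 and 3 of its group. The rise over WT NSC was 5.69 on the log2 scale (SE 0.66, adjusted p = 0.00873) and that over Nf1-null NSC was 3.58 (SE 0.66, adjusted p = 0.0478). Nf1-null NSC stood 2.11 above WT NSC (SE 0.66, adjusted p = 0.198) and were higher in 3 of 3 same-numbered pairs. The call against WT NSC was kept without each of the 9 arrays in turn, and without GSC array 1 the fold there was 92.5 in place of 51.8. That against Nf1-null NSC was kept only without GSC array 1, at 4.42 (adjusted p = 0.00465). It was lost without any 1 of the other 8 arrays: the difference was 3.58 without WT array 1, 2 or 3, 3.30, 3.78 and 3.67 without Nf1-null array 1, 2 or 3, and 3.15 and 3.18 without GSC array 2 or 3. The second Itga8 probe set gave 5.09 for GSC against WT NSC.

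Itga4 encodes α4, the receptor chain for VCAM1 and an alternatively spliced part of fibronectin. Signals of 1262.8, 3271.4 and 3695.9 in GSC lay above 921.6, 866.8 and 363.6 in the Nf1-null NSC and 457.8, 184 and 389.1 in WT NSC. The NSC groups overlapped with each other, through Nf1-null array 3. The rise over WT NSC was 2.95 (SE 0.57, adjusted p = 0.0260), or 7.73-fold, and the difference from Nf1-null NSC was 1.90 (SE 0.57, adjusted p = 0.158). The call against WT NSC was lost without WT array 2 (2.55) or 3 (3.09) and without GSC array 2 (2.75) or 3 (2.66). Of the 5 Itga4 probe sets, the dimmest gave -0.68 in this comparison and the others were positive.

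Itgb5 encodes β5, which pairs with αv in the vitronectin receptor αvβ5. It was low in GSC, at 1147.8, 536.2 and 441.1, against 4003.9, 1757 and 2255.3 in the Nf1-null NSC and 6759.9, 6956.7 and 3542.4 in WT NSC. GSC overlapped with neither NSC group, whereas Nf1-null array 1 lay above WT array 3. The fall relative to WT NSC was -3.08 on the log2 scale, 8.49-fold (SE 0.47, adjusted p = 0.0158). Relative to Nf1-null NSC the difference was -1.95 (SE 0.47, adjusted p = 0.101), and it passed without GSC array 1, at -2.37 (adjusted p = 0.0395). Without WT array 2 (-2.92), GSC array 2 (-2.95) or GSC array 3 (-2.81), the call against WT NSC was lost. All 4 Itgb5 probe sets were lower in GSC than in WT NSC, by log2 differences between -4.38 and -2.53.

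**Figure D1:**
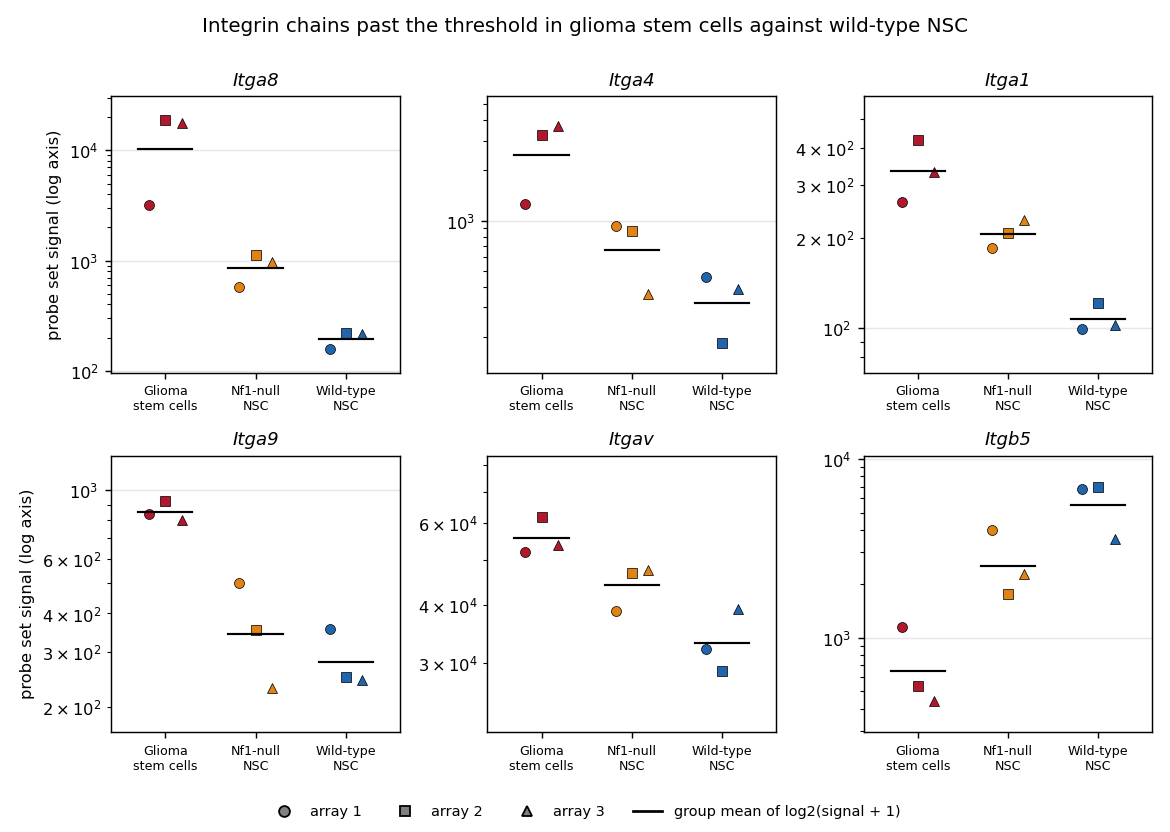
Probe set signals (log axis) of the 6 integrin chains past the threshold in GSC against WT NSC, for GSC, Nf1-null NSC and WT NSC from left to right. Symbols stand for arrays 1 to 3 and the bar for the group mean of log2(signal + 1). In Itga8 and Itga1 all 3 groups are separate on the probe set shown, and in Itgb5 GSC lie lowest, at 441.1 to 1147.8.

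The promoter windows of these 3 genes are printed because they had the largest differences among the members called, in both directions. They come from RefSeq (GRCm38.p6) and run from 250 bases before to 50 bases after the start site, on the gene's strand, with the GC box GGGCGG or its reverse complement CCGCCC in capitals.
Itga8, chr2:12301895-12302194, minus strand: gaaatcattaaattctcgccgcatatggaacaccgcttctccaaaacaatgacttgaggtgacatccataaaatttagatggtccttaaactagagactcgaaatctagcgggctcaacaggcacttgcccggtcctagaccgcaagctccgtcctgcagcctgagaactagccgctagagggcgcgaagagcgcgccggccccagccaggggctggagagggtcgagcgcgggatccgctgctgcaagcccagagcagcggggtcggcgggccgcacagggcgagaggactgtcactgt
Itga4, chr2:79255176-79255475, plus strand: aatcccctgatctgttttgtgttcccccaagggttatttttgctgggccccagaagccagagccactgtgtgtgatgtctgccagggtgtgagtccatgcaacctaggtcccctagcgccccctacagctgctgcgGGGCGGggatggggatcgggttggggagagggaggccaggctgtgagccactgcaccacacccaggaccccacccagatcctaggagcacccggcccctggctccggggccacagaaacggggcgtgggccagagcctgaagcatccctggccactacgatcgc
Itgb5, chr16:33829415-33829714, plus strand: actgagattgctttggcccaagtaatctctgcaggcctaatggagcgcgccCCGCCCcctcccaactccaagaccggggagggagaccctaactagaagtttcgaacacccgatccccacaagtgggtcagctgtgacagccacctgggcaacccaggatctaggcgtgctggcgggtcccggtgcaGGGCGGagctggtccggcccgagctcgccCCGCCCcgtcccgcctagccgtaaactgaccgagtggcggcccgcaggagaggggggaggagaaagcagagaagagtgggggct
The GC box was found 0 times in the Itga8 window, 1 time in that of Itga4 and 3 times in that of Itgb5, on either strand. It occurs in 35.9% of 27025 promoter windows of the same length. The letters TGACTCA (held by 5.17% of windows), CACGTG (7.24%), CCGGAAG (9.12%) and TATAAA (14.2%) were in none of the 3 windows on either strand. These matches describe the letters of the windows and say nothing of binding.

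Another 3 alpha chains rose in GSC against WT NSC. Itga1 encodes α1, a collagen and laminin receptor chain with β1. Its signals were 264.1, 425.4 and 333 in GSC, 184.9, 208 and 230.7 in the Nf1-null NSC, and 99.6, 121.4 and 102.8 in WT NSC. All 3 groups were separate, and the rise over WT NSC was 1.63, 3.09-fold (SE 0.21, adjusted p = 0.00985). It stayed past the threshold without each of the 9 arrays in turn. The smaller steps, 0.69 over Nf1-null NSC (SE 0.21, adjusted p = 0.161) and 0.94 for Nf1-null over WT NSC (SE 0.21, adjusted p = 0.134), did not pass. The second Itga1 probe set gave -1.22 for Nf1-null against WT NSC, opposite in sign, and 0.58 for GSC against WT NSC, with overlap. The order of the 3 groups thus holds for the brightest probe set alone. With the mean of both Itga1 probe sets the difference from WT NSC was 1.10 (adjusted p = 0.0858), so this call rests on the probe set chosen.

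Itga9 encodes α9, which with β1 binds tenascin-C and SVEP1. GSC had 840.7, 927.4 and 799.9, Nf1-null NSC 501.9, 353.2 and 230.4, and WT NSC 357.4, 248.6 and 243.8. GSC were above every NSC array, and the NSC groups overlapped with each other. The difference from WT NSC was 1.61, 3.06-fold (SE 0.30, adjusted p = 0.0233), and from Nf1-null NSC 1.31 (SE 0.30, adjusted p = 0.0868). The first was no longer called without WT array 2 (1.53) or 3 (1.52) or GSC array 2 (1.55) or 3 (1.66).

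Itgav encodes αv, the partner of β1, β3, β5, β6 and β8. Its signals were 51894.2, 61894.7 and 53873.7 in GSC, 38851.1, 46833.8 and 47461.4 in the Nf1-null NSC, and 32146.5, 28795.8 and 39292 in WT NSC. GSC lay above both NSC groups, and Nf1-null array 1 fell just under WT array 3. The 1.68-fold difference from WT NSC (0.75 on the log2 scale, SE 0.18, adjusted p = 0.0405) is the weakest of the 6 calls. It was lost without any 1 of the 9 arrays, with values of 0.73, 0.65 and 0.87 without WT array 1, 2 or 3, 0.75 without each Nf1-null array, and 0.80, 0.67 and 0.77 without GSC array 1, 2 or 3. The other 4 Itgav probe sets gave 1.57, 0.78, 2.88 and -0.89.

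Of the beta partners of αv, Itgb5 fell, as above. Itgb8, which encodes the chain that with αv activates latent TGF-beta, had 33388.8, 24567.7 and 21274.8 in GSC, 35463.8, 28469 and 44069.2 in the Nf1-null NSC, and 40827.1, 43906.4 and 52392.6 in WT NSC. GSC were below WT NSC in all arrays, at -0.81 (SE 0.24, adjusted p = 0.0760), and this passed without GSC array 1, at -0.99 (adjusted p = 0.0469). Without GSC array 2 or 3 the difference was -0.77 (adjusted p = 0.198) or -0.67 (adjusted p = 0.215). Itgb3 and Itgb6, the other beta partners of αv, had signals of 172.9 or less on every array.

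The beta chain shared by most of these receptors is β1, from Itgb1. Its signals were 7978.7, 14370.1 and 17241.6 in GSC, 9643.1, 12252.2 and 9882 in the Nf1-null NSC, and 6819.3, 5779.3 and 5574.6 in WT NSC. GSC and Nf1-null NSC were above every WT array, and they overlapped with each other. Neither difference passed: 1.06 for GSC over WT NSC (95% interval 0.38 to 1.73, adjusted p = 0.0633) and 0.80 for Nf1-null over WT NSC (SE 0.29, adjusted p = 0.231). Without GSC array 1, the lowest of its group, the difference of GSC from WT NSC was 1.38 (adjusted p = 0.0122). Without GSC array 2 or 3 it was 0.96 (adjusted p = 0.181) or 0.83 (adjusted p = 0.174).

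**Figure D2:**
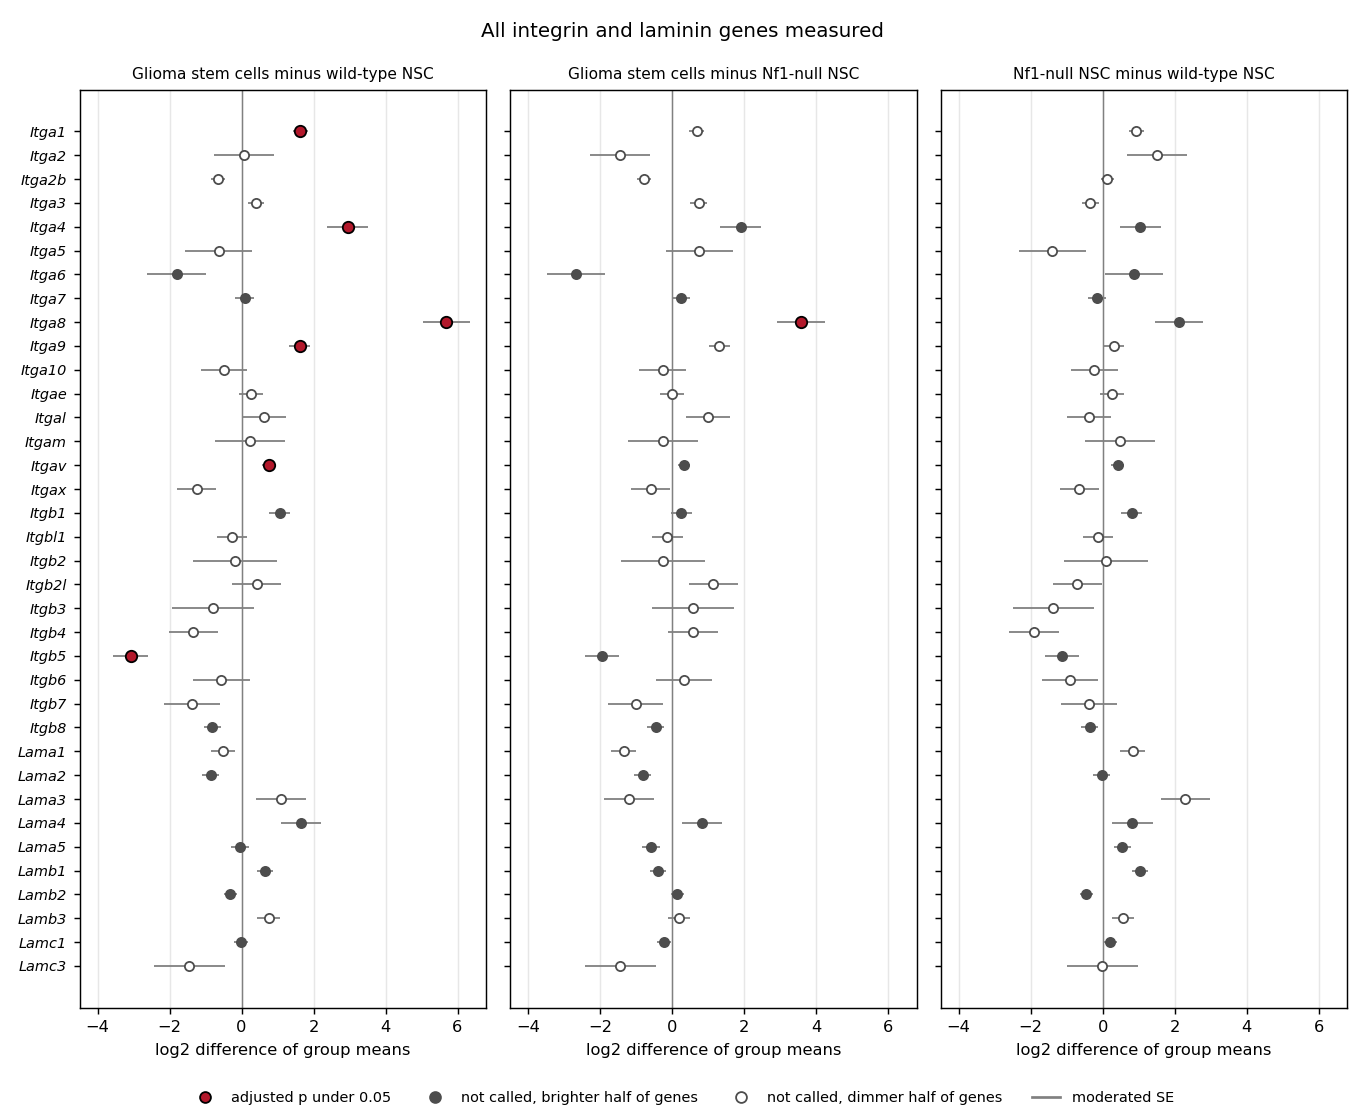
Log2 differences of group means for all 36 members in GSC against WT NSC, GSC against Nf1-null NSC and Nf1-null against WT NSC. Bars show the moderated standard error, not a 95% interval. Filled red points passed the threshold: 6 in the first comparison, 1 (Itga8) in the second and 0 in the third, and open points mark genes outside the brighter 9097.

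Against Nf1-null NSC, Itga8 was the only 1 of the 36 members called in GSC, or 2.78%, beside 1.75% of all genes (0.671% higher and 1.08% lower). The other 35 had log2 differences between -2.67 and 1.90, with a median over all members of -0.06 beside -0.04 over all genes. Groups did not overlap in 14 members (6 higher and 8 lower, 38.9%), beside 21.9% of all genes. For GSC against WT NSC these numbers were 16 members (10 higher and 6 lower, 44.4%), beside 34.8% of all genes. Both comparisons share the GSC arrays.

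Tests over the brighter 9097 genes alone, or with a mean-variance trend over all genes, called more members and more genes. The brighter genes were picked by the mean over all 9 arrays, and high GSC signals helped Itga8 and Itga4 into the 14. Counts over the brighter genes are thus no added support for the rises of Itga8 and Itga4. In GSC against WT NSC the brighter genes gave 9 of 14 members beside 27.2% of those genes, the trend gave 10 of 36 beside 14.7% of all genes, and the brighter genes with the replicate number as a block gave 9 of 14 beside 33.1%. The 9 members over the brighter genes were Itga4, Itga8, Itgav, Itgb1 (adjusted p = 0.0189), Itgb5, Itgb8 (0.0241) and the laminin chains Lama2, Lama4 and Lamb1. The 10 members with the trend were the 6 called without it and Itgb1 (adjusted p = 0.0190), Itgb8 (0.0247), Lama2 (0.0437) and Lamb1 (0.0451). With the block over all genes Lama2 passed too (adjusted p = 0.0439). GSC came from other mice, so the block joins them to NSC arrays by replicate number alone. In GSC against Nf1-null NSC the brighter genes gave 2 members, Itga8 (adjusted p = 0.0114) and Itgb5 (0.0324), beside 6.67%. There the trend gave 3 beside 4.05% (Itga8, Itgb5 and Itga9, with an adjusted p of 0.0479 for Itga9). The block over the brighter genes also gave 3, beside 10.4% (Itga8, Itgb5 and Lama2, with an adjusted p of 0.020 for Lama2).

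Between Nf1-null and WT NSC, 0 of the 36 members passed in limma, as did 0 of all 18193 genes (0%). At an unadjusted p under 0.05 there were 10 members (27.8%), beside 16.8% of all genes. Groups did not overlap in 11 members (8 higher and 3 lower, 30.6%), beside 23.8% of all genes. Over the brighter 9097 genes alone, where 4.38% were called, 1 of 14 members passed. This was Lamb1, which encodes the laminin β1 chain, at 2.06-fold (adjusted p = 0.0274, and 0.121 over all genes), and it was the only member called with the trend (adjusted p = 0.0310, beside 1.81% of all genes). Lamb1 signals were 5757.5, 4305.4 and 5172 in the Nf1-null NSC and 3201.6, 1933.2 and 2378.2 in WT NSC, higher in 3 of 3 same-numbered pairs. The log2 difference was 1.04 (SE 0.21). Same-numbered NSC arrays deviated together, and with the replicate number as a block over the brighter genes 3 members passed beside 11.9% of these genes: Lamb1 (adjusted p = 0.0174), Itga8 (0.0253) and Itgb5 (0.0414), with Itgb5 lower in the Nf1-null NSC by -1.13. High GSC signals helped Itga8 into the brighter genes, so its call here is no added support for a difference between the NSC groups. Over all genes without the block its limma adjusted p was 0.198. Among dimmer members, the groups were separate with a log2 difference of at least 1 for Lama3 (2.29, adjusted p = 0.188), Itga2 (1.52, adjusted p = 0.403) and Itgb4 (-1.92, adjusted p = 0.231). The second Lama3 probe set gave -0.58 in this comparison, the opposite sign, so no direction is given for Lama3.

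Receptor chains for laminins were then set beside the laminin chains. Itga6 encodes α6, which forms laminin receptors with β1 and β4. Its signals were 8393, 1267.3 and 820 in GSC, 11259.8, 22258.2 and 8928.4 in the Nf1-null NSC, and 6086.9, 7819.2 and 7817.8 in WT NSC. GSC array 1 lay above all WT arrays and arrays 2 and 3 far below them, so that GSC overlapped with WT NSC and not with Nf1-null NSC. Over all arrays the differences were -1.80 from WT NSC (SE 0.81, adjusted p = 0.207) and -2.67 from Nf1-null NSC (SE 0.81, adjusted p = 0.163). Without GSC array 1 they were -2.82 (adjusted p = 0.0143) and -3.68 (adjusted p = 0.010), and both passed. The second Itga6 probe set showed the same gap within GSC, with 3228.3, 342.7 and 341.9 in GSC, 4321.5, 7986.5 and 3294.8 in the Nf1-null NSC, and 2535.2, 3586.5 and 2950.2 in WT NSC. Itga6 and Itga8 thus set GSC array 1 apart from the other GSC arrays in opposite directions.

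**Figure D3:**
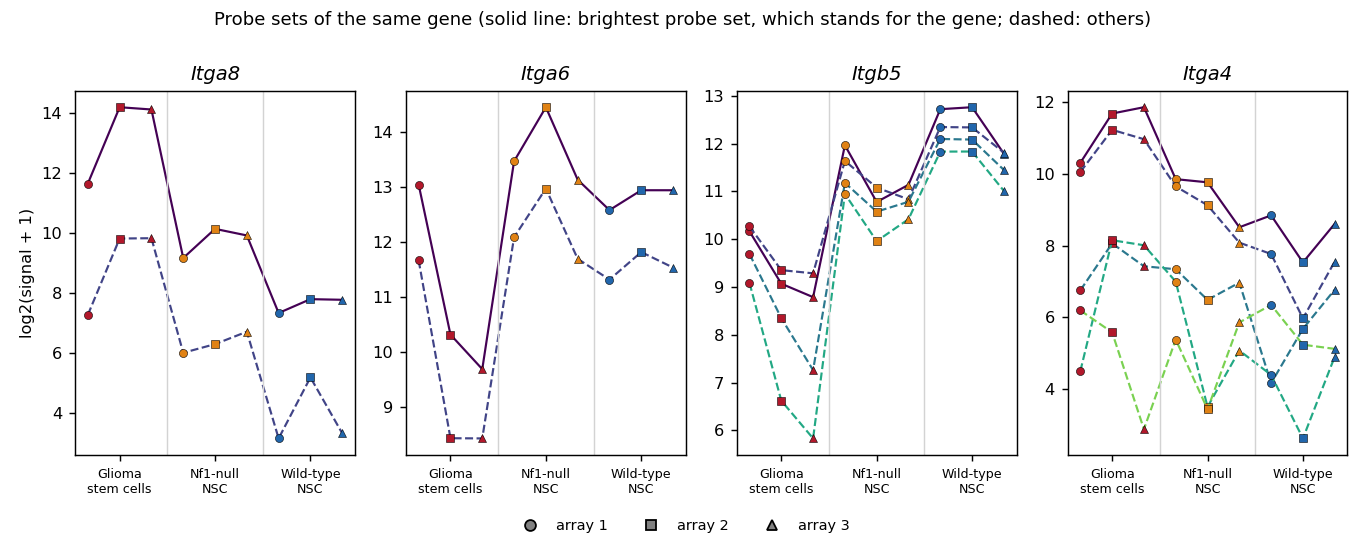
Log2(signal + 1) of every probe set of Itga8, Itga6, Itgb5 and Itga4, by array, for GSC, Nf1-null NSC and WT NSC from left to right. The solid line is the brightest probe set, which stands for the gene. Both Itga6 probe sets separate GSC array 1 (8393 and 3228.3) from GSC arrays 2 and 3 (1267.3 or less and 342.7 or less).

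No other laminin receptor alpha chain than Itga1 passed in any comparison over all arrays. Itga7, which encodes the laminin receptor chain α7 of muscle and glia, had 1040.8, 1077.9 and 736.3 in GSC, 614, 855.4 and 952.1 in the Nf1-null NSC, and 791.5, 773.8 and 1126.8 in WT NSC. These groups overlapped, and the difference of GSC from WT NSC was 0.09 (SE 0.26, adjusted p = 0.869). Itga3 encodes α3, a receptor chain for laminins that hold the α3 or α5 laminin chain. It had 358.1, 294.3 and 359.1 in GSC, 152.6, 269 and 199.2 in the Nf1-null NSC, and 253.1, 283.7 and 231.5 in WT NSC. GSC were highest on all arrays, by 0.39 over WT NSC (SE 0.23, adjusted p = 0.317) and 0.73 over Nf1-null NSC (SE 0.23, adjusted p = 0.168). The collagen and laminin receptor chain Itga2 had 31, 187.9 and 84.7 in GSC, 213.1, 258.2 and 189.1 in the Nf1-null NSC, and 179.3, 23.7 and 100 in WT NSC. Itgb4, the β4 partner of α6 in hemidesmosomes, had 52.1, 22.7 and 11.9 in GSC, 7, 21.5 and 25.9 in the Nf1-null NSC, and 68.1, 33.3 and 109.4 in WT NSC. At such signals the spread between replicates was large, with a median SD of 1.12 on the log2 scale in the dimmest of 4 equal bins of genes against 0.20 in the brightest.

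Laminin alpha chains carry the receptor-binding globules. Lama4, the α4 chain of vessel and nerve laminins, had 1117.7, 2092.1 and 1677.8 in GSC, 400.2, 1731.3 and 1000.5 in the Nf1-null NSC, and 339.7, 461 and 803.5 in WT NSC. Every GSC array was above every WT array, at 1.65 (SE 0.56, adjusted p = 0.112). Lama2, the α2 chain of muscle and glial laminins, had 375.8, 466 and 597.4 in GSC, 662, 813.7 and 1078.6 in the Nf1-null NSC, and 809.6, 887.6 and 865.5 in WT NSC. It was lower in GSC than in either NSC group without overlap, at -0.86 against WT NSC (SE 0.24, adjusted p = 0.0652) and -0.82 against Nf1-null NSC (SE 0.24, adjusted p = 0.147). Over the brighter genes alone Lama2 (adjusted p = 0.0194), Lama4 (0.0430) and Lamb1 (0.0368) passed in GSC against WT NSC.

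None of the other laminin alpha chains passed. Lama1, the α1 chain of early and pial basement membranes, had 208.3, 128.8 and 159.9 in GSC, 529, 498 and 271.9 in the Nf1-null NSC, and 309, 238.5 and 171.4 in WT NSC. GSC were below Nf1-null NSC on all arrays, at -1.35 (SE 0.34, adjusted p = 0.110). Lama5, the broadly expressed α5 chain, had 886.9, 623.5 and 916.2 in GSC, 1274, 1240.4 and 1089.7 in the Nf1-null NSC, and 961.5, 602.6 and 955.6 in WT NSC. Its difference from WT NSC in GSC was -0.04 (SE 0.24, adjusted p = 0.936). Lama3, the α3 chain of epithelial laminins, was dim, with 83.1, 49 and 108.2 in GSC, 91.6, 263.6 and 225.6 in the Nf1-null NSC, and 36, 13.9 and 84.6 in WT NSC.

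Beta and gamma laminin chains complete the trimers. Lamb1 had 3952.8, 3945.3 and 3622.4 in GSC, against the NSC values given above, and stood 0.65 above WT NSC (SE 0.21, adjusted p = 0.104) without overlap. Lamb2, the β2 chain, had 1011.2, 936.4 and 833.8 in GSC, 704.9, 824.2 and 1017.5 in the Nf1-null NSC, and 1019.9, 1233 and 1206.2 in WT NSC. Lamc1, the γ1 chain of most laminins, had 1593.6, 1176.9 and 1209.6 in GSC, 1427.3, 1527.5 and 1670.7 in the Nf1-null NSC, and 1231, 1182.8 and 1611.1 in WT NSC. The Lamc1 groups overlapped, and the difference of GSC from WT NSC was -0.02, with a 95% interval of -0.46 to 0.43. The second Lamc1 probe set gave 0.72, outside that interval, and its groups overlapped too. Lamb3, the β3 chain of epithelial laminins, had 146.4, 173.2 and 164 in GSC, 121.2, 148.1 and 155.5 in the Nf1-null NSC, and 123.6, 56 and 124.2 in WT NSC. Lamc3, a second gamma chain, had 159.3, 10.1 and 174.5 in GSC, 159.6, 172.7 and 224.4 in the Nf1-null NSC, and 127.2, 261.9 and 190.1 in WT NSC. Its probe sets gave opposite signs for GSC against WT NSC, -1.46 and 1.14, so no direction is given.

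**Figure D4:**
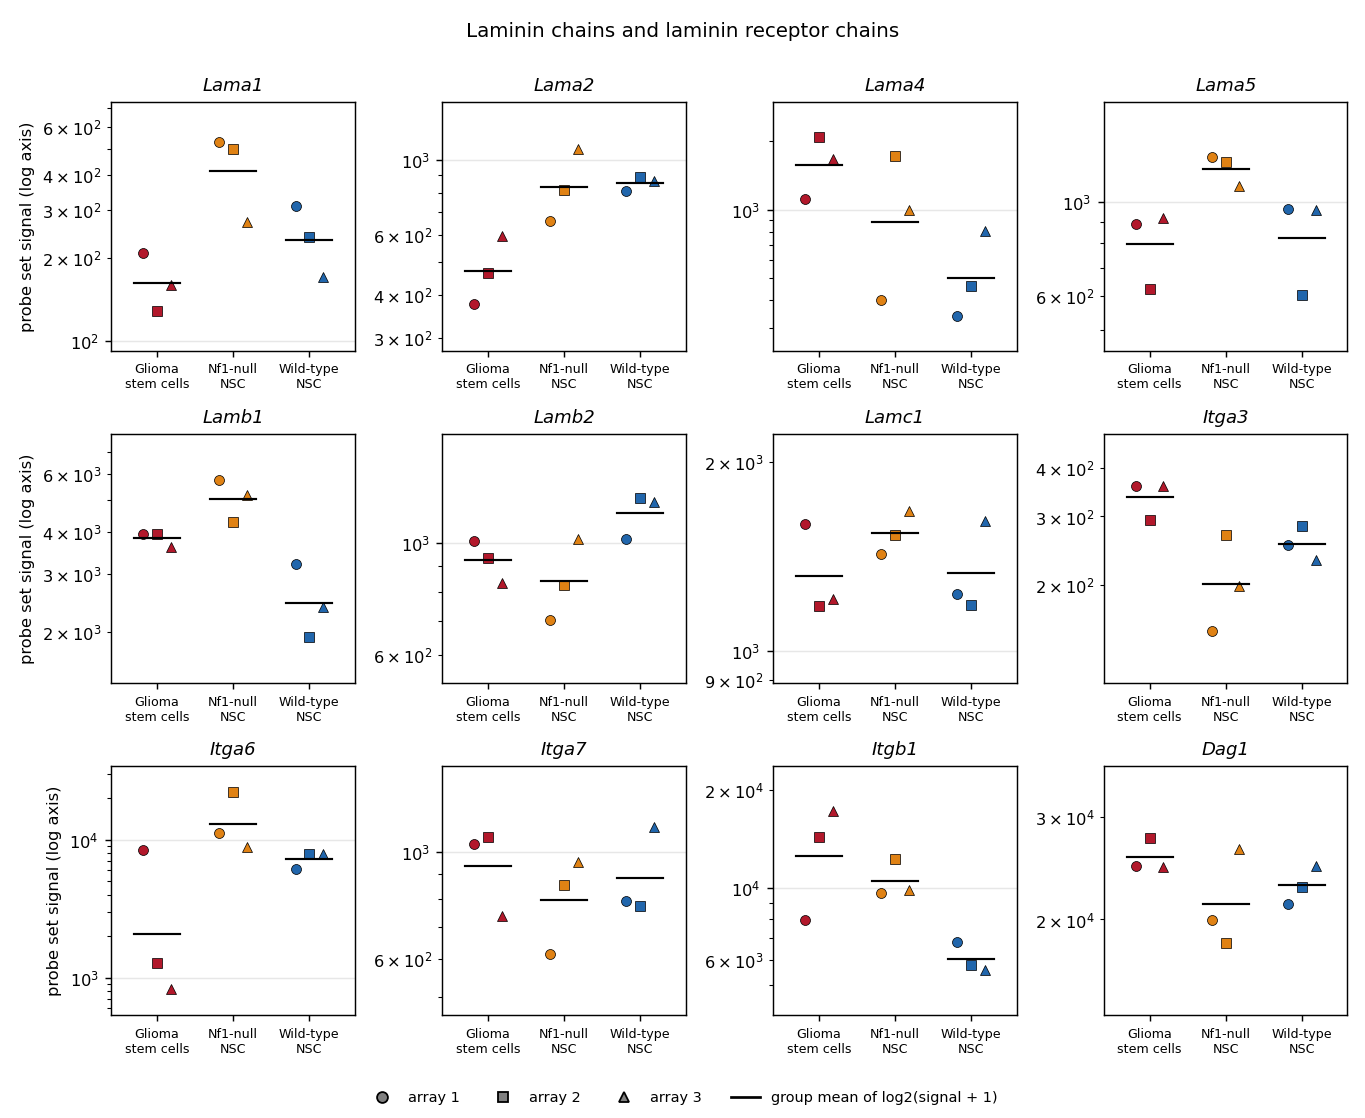
Probe set signals (log axis) of 7 laminin chains, the integrin chains Itga3, Itga6, Itga7 and Itgb1 and dystroglycan (Dag1) on each array, with GSC left, Nf1-null NSC in the middle and WT NSC right. Symbols stand for arrays 1 to 3 and the bar for the group mean of log2(signal + 1). Itga6 shows the widest spread within GSC (820 to 8393), Lama4 lies higher and Lama2 lower in GSC than in WT NSC, and Lamc1 overlaps in all groups.

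Pairing the chains limits which receptors and ligands can be read from the arrays. Of 24 known integrin pairs, 22 had both chains measured and 7 had both in the brighter 9097 genes: α4β1, α6β1, α7β1, α8β1, αvβ1, αvβ5 and αvβ8. Of these, α6β1 and α7β1 bind laminins. The brighter genes were picked by a mean that includes the GSC arrays. High GSC signals of Itga4 and Itga8 thus helped α4β1 and α8β1 into this list. Their listing restates in part the rises of these chains in GSC and does not show that both chains were bright in WT NSC. Of 13 laminin trimers with all chains measured, 6 had all chains in the brighter genes, made of the α2, α4 or α5 chain with β1 or β2 and γ1. In GSC against WT NSC the log2 differences of α6β1 were -1.80 for Itga6 and 1.06 for Itgb1, and those of α7β1 were 0.09 for Itga7 and again 1.06 for Itgb1. Those of α8β1 were 5.69 for Itga8 and 1.06 for Itgb1, and those of αvβ5, which differed in sign, 0.75 for Itgav and -3.08 for Itgb5. Those of the laminin chains were -0.86 for Lama2, 1.65 for Lama4, -0.04 for Lama5, 0.65 for Lamb1, -0.31 for Lamb2 and -0.02 for Lamc1. None of these laminin chains passed without a trend or block over all genes, nor did Itga6, Itga7 or Itgb1. Itgb1, Lama2 and Lamb1 passed with the trend, as given above. RNA of 2 chains does not show that the dimer or trimer was made.

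Laminins also bind receptors that are not integrins. Of 13 genes measured for the dystroglycan complex and other such receptors, 0 rose and 3 fell in GSC against WT NSC. Over all genes 3.46% rose and 5.60% fell there. Dmd, which encodes dystrophin, the cytoskeletal link of dystroglycan, had 4893.7, 2759.3 and 2413.5 in GSC, 9954.4, 12623 and 15942.6 in the Nf1-null NSC, and 9766.3, 10354.6 and 21726 in WT NSC. It was 4.07-fold lower than in WT NSC (adjusted p = 0.0272), and GSC lay below every NSC array. The other 2 were Sgcb, a sarcoglycan (-0.75, adjusted p = 0.0427), and Pomt2, which adds the first sugar that dystroglycan needs to bind laminin (-0.86, adjusted p = 0.0491). Dag1, dystroglycan itself, had 24720.5, 27566.8 and 24626.2 in GSC, 19939.4, 18210.7 and 26406.7 in the Nf1-null NSC, and 21279.8, 22775.3 and 24696.3 in WT NSC (0.16, adjusted p = 0.613 for GSC against WT NSC). Bcam, a receptor for laminins with the α5 chain, was at 0.05 (adjusted p = 0.956). Against Nf1-null NSC 0 of the 13 passed in limma, with 2 at an unadjusted p under 0.05, beside 1.75% and 16.5% of all genes. The median over the 13 genes in GSC against WT NSC was 0.05, beside -0.09 over all genes.

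Of 14 partners of laminins in the basement membrane (nidogens, collagen IV, perlecan and agrin among them), 0 rose and 2 fell in GSC against WT NSC. Over all genes 3.46% rose and 5.60% fell there, and the median over the list was -0.64. The 2 that fell were Nid2, which encodes nidogen-2 (-1.51, adjusted p = 0.0364), and Col4a5, a collagen IV chain (-1.17, adjusted p = 0.0428). Against Nf1-null NSC 0 passed in limma and 6 had an unadjusted p under 0.05, beside 1.75% and 16.5% of all genes. The median over the list there was -0.48.

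Of 28 other integrin ligands measured, 1 rose and 5 fell against WT NSC, and 1 rose and 3 fell against Nf1-null NSC, with medians of -0.26 and -0.15. Over all genes 3.46% rose and 5.60% fell against WT NSC, and 0.671% rose and 1.08% fell against Nf1-null NSC. Npnt, which encodes nephronectin, the ligand of α8β1, had 486.3, 495.1 and 714.7 in GSC, 2255.7, 3141.7 and 2212.7 in the Nf1-null NSC, and 923.3, 1078.4 and 1155.7 in WT NSC. It was 4.49-fold lower than in the Nf1-null NSC (adjusted p = 0.010) and 1.88-fold lower than in WT NSC (adjusted p = 0.0464). The 3 groups did not overlap, and GSC, where Itga8 was highest, had the lowest values. Vcam1, a ligand of α4β1, had 5560.7, 5064 and 5043.1 in GSC, 4788, 2435.5 and 4435.6 in the Nf1-null NSC, and 12604.9, 16658.3 and 10789.9 in WT NSC. It was 2.52-fold lower in GSC than in WT NSC (adjusted p = 0.0329), with every GSC array above every Nf1-null array. Svep1, a ligand of α9β1, was 9.45-fold lower than in WT NSC (adjusted p = 0.0285). Tnc, which encodes tenascin-C, another ligand of α9β1, had 23281.8, 23392.5 and 20092.1 in GSC, 19723, 54041.5 and 16718.6 in the Nf1-null NSC, and 7143.8, 7590.8 and 2414.3 in WT NSC. GSC and Nf1-null NSC lay above every WT array, at 2.13 for GSC against WT NSC (SE 0.56, adjusted p = 0.0566), which did not pass and is opposite in sign to Svep1.

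Some latent forms of TGF-beta are activated by αvβ8 and other αv integrins. Tgfb2 and Tgfb3 were listed with the ligands as TGF-beta genes, which does not show that either product binds an αv integrin. Tgfb2 had 7163.8, 7787.2 and 9468.7 in GSC, 1758.8, 1486.8 and 2000.9 in the Nf1-null NSC, and 2348.2, 2402.7 and 2409.3 in WT NSC. Tgfb3 had 16, 35.7 and 27.7 in GSC, 268.3, 394.7 and 477.3 in the Nf1-null NSC, and 351.7, 228.6 and 325.8 in WT NSC. GSC were separate from both NSC groups in each gene, in opposite directions. Tgfb2 rose 3.39-fold over WT NSC (adjusted p = 0.00656) and 4.65-fold over Nf1-null NSC (adjusted p = 0.00493), and Tgfb3 fell 11.4-fold against WT NSC (adjusted p = 0.00656) and 14.2-fold against Nf1-null NSC (adjusted p = 0.00701). Thbs2, which encodes the matrix protein thrombospondin-2, fell 3.18-fold against WT NSC (adjusted p = 0.0424) and 8.61-fold against Nf1-null NSC (adjusted p = 0.0195).

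Inside the cell, 31 genes for integrin adaptors and kinases were measured, and 1 rose and 1 fell in GSC in each comparison. Over all genes 3.46% rose and 5.60% fell against WT NSC, and 0.671% rose and 1.08% fell against Nf1-null NSC. Parvb encodes β-parvin, a partner of ILK. It had 131.2, 67.2 and 144.8 in GSC, 1589.1, 1393.8 and 755.5 in the Nf1-null NSC, and 1412.6, 1449.8 and 923.9 in WT NSC. GSC lay far below all NSC arrays, 11.3-fold against WT NSC (adjusted p = 0.00819) and 10.8-fold against Nf1-null NSC (adjusted p = 0.0136). Lims1, which encodes PINCH1 of the same ILK complex, rose 2.57-fold over WT NSC (adjusted p = 0.0204), and Dab2, an endocytic adaptor of β integrins, rose 5.61-fold over Nf1-null NSC (adjusted p = 0.0439). The medians over the list were -0.05 and 0.04. Between Nf1-null and WT NSC, 0 genes of these 4 partner lists passed in limma. At an unadjusted p under 0.05 there were 8 adaptors, 11 other ligands, 3 basement membrane partners and 1 of the receptors that are not integrins. Of all genes 16.8% were under that level.

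Calls in the partner lists were recomputed without each of the 9 arrays. The calls of Tgfb2, Tgfb3 and Parvb in both comparisons and of Npnt against Nf1-null NSC were kept in all 9. Calls against WT NSC of Lims1 and Dmd were each lost without WT array 2 or 3 or GSC array 2 or 3 (Lims1 1.27 to 1.48, Dmd -2.33 to -1.65 over all 9). Svep1, which lost its call without WT array 1, 2 or 3 or GSC array 1 or 2, lay between -3.92 and -2.60. The call of Thbs2 against Nf1-null NSC was lost without Nf1-null array 2 or GSC array 2 or 3 (-3.39 to -2.70). Those against WT NSC of Sgcb, Pomt2, Nid2, Col4a5, Thbs2, Vcam1 and Npnt and that of Dab2 against Nf1-null NSC were lost without each of at least 6 of the 9 arrays. The call of Nf1 against WT NSC was lost in 7 of the 9, with differences between -0.85 and -0.70.

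Integrin chains are also carried by other cell types, so their markers were read beside the members. Leukocyte integrin chains (Itgal, Itgam, Itgax, Itgae, Itgb2 and Itgb7) had signals between 7.2 and 228.8 in GSC, 27 and 215.5 in the Nf1-null NSC, and 13.2 and 162.1 in WT NSC, and none passed. Of 13 microglia and leukocyte markers 0 passed in any comparison in limma. At an unadjusted p under 0.05 there were 0 in GSC against WT NSC and 1 in GSC against Nf1-null NSC, beside 26.3% and 16.5% of all genes. The summed signal of these markers was 1447.3 to 1794.6 in GSC, 1433.2 to 1882.1 in the Nf1-null NSC and 1669.9 to 1995.1 in WT NSC, and Ptprc was at 56.1 or less in GSC. Of 10 endothelial markers 1 fell (Emcn), and the sums were 1253.7 to 1542.8 in GSC, 1590.4 to 2066.6 in the Nf1-null NSC and 1313.9 to 1535.5 in WT NSC. Of 10 mural and fibroblast markers 1 fell (Acta2), with sums of 927.5 to 1028.8 in GSC, 1279.8 to 1918.7 in the Nf1-null NSC and 1319.9 to 1720.1 in WT NSC. Emcn and Acta2 fell in GSC against each NSC group. Over all genes 5.60% fell against WT NSC and 1.08% against Nf1-null NSC. The Emcn calls were lost without each of 7 of the 9 arrays against WT NSC and of 5 against Nf1-null NSC, and the Acta2 calls without each of 2 against WT NSC and of 6 against Nf1-null NSC. No marker of these 3 lists was listed at 0 on any array.

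The platelet chain Itga2b had a difference of -0.65 from WT NSC (adjusted p = 0.0717), and of 4 platelet markers Pf4 rose, 15.5-fold against WT NSC (adjusted p = 0.0156, lost without WT array 2 or 3 or GSC array 2, with 3.41 to 4.62 on the log2 scale over all 9). Over all genes 3.46% rose in GSC against WT NSC. The summed platelet signals were 1351.6 to 5575.1 in GSC, 962.2 to 1768 in the Nf1-null NSC and 527.6 to 748.3 in WT NSC. Most of the GSC sum came from Pf4, with 959.9, 2902.3 and 5114.2 in GSC and 175.1, 180 and 119.8 in WT NSC. Of the 4 platelet markers, 2 had positive and 2 negative differences in GSC against WT NSC. Of 5 Schwann cell markers 0 passed in limma in any comparison. Of all genes 26.3% had an unadjusted p under 0.05 in GSC against WT NSC, as did 1 of these markers. Their summed signals were 5432.3, 14095.5 and 15256.1 in GSC, 4055.5 to 8533.9 in the Nf1-null NSC and 4326.8 to 6932.4 in WT NSC, so that GSC arrays 2 and 3, where Itga8 was highest and Itga6 lowest, also had the highest sums. Most of the sum came from Pmp22, with 4380.5, 11229 and 12151.6 in GSC, 2747.7, 4197.7 and 7112.8 in the Nf1-null NSC, and 1214, 1319.2 and 4967.8 in WT NSC. Sox10, which encodes a transcription factor of Schwann cells and oligodendroglia, had 741.4, 2176 and 2085 in GSC, 929.4, 262.8 and 1037.1 in the Nf1-null NSC, and 3479.2, 2511.4 and 1352 in WT NSC.

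Neural markers also differed. Over all genes 3.46% rose and 5.60% fell in GSC against WT NSC, and 0.671% rose and 1.08% fell against Nf1-null NSC. Of 8 astrocyte markers, 0 rose and 3 fell in GSC against each NSC group (Aldh1l1, Aqp4 and Gja1). Their summed signals were 123368.1 to 151887.4 in GSC, 103553.4 to 204121.9 in the Nf1-null NSC and 259378.5 to 303781.1 in WT NSC. Aldh1l1 had 660.4, 282.7 and 239.5 in GSC, 31920.6, 25833.2 and 40852.5 in the Nf1-null NSC, and 32418.4, 33105.9 and 43185.6 in WT NSC, and its calls were kept without each of the 9 arrays. S100b of the same list went the other way without passing, with 17467.7, 34245.9 and 33524.6 in GSC and 11308.3 or less on every NSC array. Of the 8 astrocyte markers, 1 was positive and 7 negative against WT NSC, and 4 were positive and 4 negative against Nf1-null NSC. Of 12 neural stem cell markers, 1 rose (Hes1) and 2 fell (Msi1 and Slc1a3) in GSC against WT NSC. Of 8 oligodendrocyte precursor markers, 0 passed against WT NSC and 2 rose (Pcdh15 and Lhfpl3) against Nf1-null NSC, with sums of 140027.6 to 151627.3 in GSC, 87094.4 to 111109.3 in the Nf1-null NSC and 133654.2 to 150420.9 in WT NSC. Other calls of these lists held less often: those against WT NSC were lost without each of 6 of the 9 arrays for Hes1 and Msi1 and of 8 for Slc1a3, and kept in all 9 for Aqp4 and Gja1. Against Nf1-null NSC the losses numbered 4 for Aqp4, 8 for Gja1, 4 for Pcdh15 and 7 for Lhfpl3. The part of the mix of cell types in the integrin differences was not tested.

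The other members, all outside the brighter genes, were Itga10, Itga5, Itgb2l and Itgbl1 besides those given above. Their signals lay between 30.4 and 216.7 in GSC, 18.9 and 210 in the Nf1-null NSC, and 39.6 and 171 in WT NSC, and none passed in any comparison.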

How the data were processed

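Total RNA of the 9 samples was hybridised to Affymetrix Mouse Genome 430 2.0 arrays from biotin-labelled cRNA, per the labels. The authors deposited 1 intensity value per probe set and array, not on a log scale. The software behind it is not given in these sources. The mean without the 2% at either end was 1500 on each of the arrays, a scaling that sets aside any difference in total RNA, and medians lay between 264.7 and 287.4. The number of arrays, 3 a group, limits the precision. The 3' to 5' signal ratio of Actb was 1.73 to 1.85 in GSC, 1.49 to 1.67 in the Nf1-null NSC and 1.87 to 1.88 in WT NSC.

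Probe sets were named from the platform annotation. Of 45101, 64 were controls, 34945 had 1 symbol, 932 several and 9160 none, and only those with 1 symbol were used. Symbols of 34741 were looked up in a RefSeq gene table, and 0 changed. The brightest probe set by mean stood for each of 18193 genes. Of the members, 21 had several probe sets. Promoter windows came from RefSeq (GRCm38.p6), which held 1 for 24 of the 36 members.

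Tests used log2(value + 1), a scale that understates fold changes of dim genes. The 9 arrays were fitted together, with a mean for each of 3 groups, in limma 3.58.1 under R 4.3.3. The fit had 6 residual and 1.63 prior degrees of freedom, no trend and no block, tested two-sided with Benjamini-Hochberg adjustment over all genes. Errors of differences are moderated standard errors. Comparisons that share a group are not independent of each other.

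Equal replicate numbers were checked for pairing by correlating deviations from group means. Same-numbered Nf1-null and WT arrays correlated at 0.64, 0.24 and 0.59 over the brighter 9097 genes, and at 0.13, 0.05 and 0.17 over all genes. The labels do not state a shared culture, so this pairing comes from the data. GSC came from other mice. Their same-numbered correlations over the brighter genes were 0.30, 0.12 and 0.11 with Nf1-null NSC (0.08, 0.04 and 0.01 over all genes) and 0.24, 0.05 and 0.20 with WT NSC, and blocked counts are given beside those comparisons.

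Values on every array are given for members past the threshold, all laminin chains and laminin receptor chains, and members separate between the NSC groups by at least 1 on the log2 scale. Genes of the partner lists are named where they passed, up to 6 per comparison by smallest adjusted p, with Dag1, Bcam and Nf1 always named. Itgb8, Tnc, Pmp22, Sox10 and S100b, and the second probe sets of Itga6, Itga1, Lama3 and Lamc1, were named after their values were seen. The members and lists were chosen with earlier results of these data known. Alternatives were quantile and median scaling, the mean of all probe sets, filters on dim genes, a variance trend, 6 arrays, the replicate block, a pseudocount of 16, other thresholds and leaving out each array.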

Additional observations from a re-analysis of the deposited data

How the results depend on the processing

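Counts of members past the threshold depended on filters and single arrays. Shares of all genes called are given above for the main fit, the brighter genes, the trend and the block over the brighter genes. For the other settings no such share is given, so those counts do not show whether members differed from other genes. In GSC against WT NSC there were 6, beside 10 without the dimmest 25% of genes, 10 with a mean-variance trend, 2 at an adjusted p under 0.01, 10 at one under 0.1, and 2 to 8 leaving out 1 array. In GSC against Nf1-null NSC there was 1, beside 0 with the mean of all probe sets, 0 with the 6 arrays of both groups, 0 at an adjusted p under 0.01, 2 over the brighter genes, 2 without the dimmest 25%, 2 at an adjusted p under 0.1, 3 with the trend, 3 with the replicate block over the brighter genes, and 0 to 3 leaving out 1 array. Between Nf1-null and WT NSC there were 0, beside 1 over the brighter genes, 1 with the trend (Lamb1, adjusted p = 0.0310) and 3 with the replicate block over the brighter genes. No difference of a named member that had passed changed sign under any alternative run. Over the brighter genes 9 members passed in GSC against WT NSC. With the replicate block over all genes 5 passed there, without Itga4 (adjusted p = 0.0560) and Itgav and with Lama2 (adjusted p = 0.0439), 1 passed against Nf1-null NSC and 0 between the NSC groups. The causes were not tested. Signals near the dim end, where the other 22 members lie, limit what 3 arrays a group can show.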
